A study of Mus musculus with 6 samples.

Results

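Collagen genes were examined in the pancreas of young mice that overexpress the homeobox transcription factor Prox1 and in their controls. The members were all genes that the array annotation names as Col, a number, the letter a and a number, read from probe sets with a single gene symbol. They came to 42 of the 18194 genes measured, covered by 82 probe sets. By the kind of structure they build, 11 were fibrillar, 8 belonged to basement membranes and 23 were other collagens. Both groups were NMRI mice at postnatal day 15 and both carried Ngn3-cre. The 3 Prox1-OE samples also carried the Jojo-Prox1 allele, and the 3 control samples did not. Ngn3-cre is a driver used to act in the progenitors of islet cells. Whole pancreas was hybridised, 1 array per sample, and in such bulk samples fewer cells of a type and less RNA per cell cannot be told apart. The labels do not tell whether each sample was another animal, and a p-value here therefore covers no more than the spread among these 6 arrays.

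Collagens are secreted proteins whose alpha chains wind into a triple helix of repeated glycine triplets. Fibrillar collagens such as types I, III and V assemble into the tensile fibrils of connective tissue, and type IV collagen forms the network of basement membranes under epithelium and around vessels. In the pancreas, fibroblasts and stellate cells of the septa make most fibrillar collagen, while islet endothelium lays down much of the basement membrane that islet cells rest on. Newly made chains are hydroxylated and folded in the endoplasmic reticulum, trimmed outside the cell and crosslinked by lysyl oxidases.

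The arrays correlated with each other at 0.988 to 0.994 over all probe sets. Prox1-OE replicate 1 stood apart on the first principal component (score -28.7, against -4.37 to 16.7 for the other arrays), so values without it are given beside the main results. The acinar marker genes Cpa1, Cpb1, Cel and Cela1 had mean levels of 14.6 to 14.7 on the log2 scale, close to the top of the arrays (14.9). The Prox1 probe set itself read 4.98 to 5.31 in Prox1-OE and 4.90 to 5.61 in control and differed by 0.06 ± 0.20 (SE, limma adjusted p = 0.971), with SDs of 0.19 and 0.41 over 3 arrays each. Whether it covers the transcript of the transgene was not tested, so it does not check the labels.

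Promoter sequences were taken from RefSeq (GRCm38.p6), whose table held a window for 33 of the 42 genes. Those of the brightest fibrillar collagens are shown because both genes reached their highest level on the same array, and the start sites of the type IV genes because Col4a1 and Col4a2 are transcribed away from each other and had the same highest and lowest arrays. The windows cover the 250 bases before the annotated start, on the strand of the gene. Capitals mark 3 promoter motifs searched on both strands: the TATA box as TATAAA, the CAAT box as CCAAT and the GC box as GGGCGG. They do not overlap one another in these windows.

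Col3a1 (chr1:45311288-45311537, plus strand): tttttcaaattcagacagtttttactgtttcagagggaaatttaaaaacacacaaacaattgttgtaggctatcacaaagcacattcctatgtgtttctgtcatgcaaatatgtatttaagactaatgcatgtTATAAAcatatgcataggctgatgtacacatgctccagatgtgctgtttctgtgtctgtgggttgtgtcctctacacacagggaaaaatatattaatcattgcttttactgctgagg

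Col1a2 (chr6:4505368-4505617, plus strand): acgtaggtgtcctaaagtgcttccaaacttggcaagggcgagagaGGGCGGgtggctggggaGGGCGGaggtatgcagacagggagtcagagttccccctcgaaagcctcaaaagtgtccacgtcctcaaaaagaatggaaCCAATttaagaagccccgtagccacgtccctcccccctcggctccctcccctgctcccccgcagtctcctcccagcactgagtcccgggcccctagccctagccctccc

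Col4a1 and Col4a2 starts (chr8:11312801-11312830, plus strand; capitals run from one start site to the other): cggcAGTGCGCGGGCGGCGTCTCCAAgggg

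The Col3a1 window held 1 TATAAA, beginning 117 bases before the start, and the Col1a2 window held 1 CCAAT, 109 bases before the start, and 2 copies of GGGCGG. Over all 36 windows of the 33 genes, TATAAA occurred in 5 (13.9%), CCAAT in 13 (36.1%) and GGGCGG in 21 (58.3%). Among all 32851 windows of the table the shares were 12.4%, 33.9% and 32.7%. These matches describe the sequence and show no binding. The annotated starts of Col4a1 (minus strand) and Col4a2 (plus strand) lay 22 bases apart, both counted, with the Col4a1 start inside Col4a2. The transcripts thus overlap at their 5′ ends as annotated. The extent depends on the record used, as the gap between the gene records was -85 bases. Col4a6 and Col4a5 on the X chromosome are also transcribed away from each other, with starts 1343 bases apart and a gap of 1274 bases between the gene records.

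No collagen gene differed between Prox1-OE and control pancreas by the test used. In limma's fit of all genes, 0 of the 42 passed an adjusted p of 0.05, where 5 of 18194 genes (0.0275%) did. At an unadjusted p under 0.05 there was 1 collagen, Col19a1, and 6.65% of all genes. The groups did not overlap for 2 collagens, Col19a1 and Col4a4, and for 12.1% of all genes. Of the 42 differences 20 were positive and 22 negative, and their median was -0.0078, beside -0.0118 for all genes. The median was 0.02 for fibrillar, 0.02 for basement membrane and -0.01 for other collagens.

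The intervals of the collagen differences were about as narrow as those of all genes. The 95% interval of the difference lay within 1 on the log2 scale, a 2-fold change, for each of the 42 genes, and within 0.5 for 35 of them. Across all genes, 17863 of 18194 intervals lay within 1 and 14944 within 0.5. Dim probe sets show compressed differences, so the intervals of dim collagens do not bound the change of their RNA. Without Prox1-OE replicate 1, 0 collagens and 0 of all genes (0%) passed the adjusted threshold. At an unadjusted p under 0.05 it was again Col19a1 alone among the collagens, against 4.9% of all genes. In that comparison 15 collagens were positive and 27 negative, with a median of -0.03, and the medians of fibrillar, basement membrane and other collagens were -0.04, -0.016 and -0.02.

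Levels of collagens are log2 values of single probe sets, which bind with unequal strength, so they do not rank the genes by abundance. A gene is called bright here when its mean level was above the median of all probe sets (4.39). There were 24 bright collagens: 8 fibrillar, 5 of basement membranes and 11 others.

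Col3a1, the chain of type III collagen of soft connective tissue, read 12.84, 12.54 and 12.55 on Prox1-OE replicates 1 to 3 and 12.61, 12.31 and 12.39 on control replicates 1 to 3. Prox1-OE replicate 1 was the highest and control replicate 2 the lowest, and control replicate 1 lay above the other Prox1-OE arrays. The difference was 0.21 ± 0.12 (SE, limma adjusted p = 0.778; 95% interval -0.07 to 0.49), and 0.11 ± 0.12 without Prox1-OE replicate 1. Col1a2, the alpha 2 chain of type I collagen, read 12.03, 11.46 and 11.64 in Prox1-OE and 11.80, 11.39 and 11.53 in control. It had the same highest and lowest arrays. Its difference of 0.13 ± 0.16 (adjusted p = 0.8997; -0.245 to 0.51) became -0.03 ± 0.14 without Prox1-OE replicate 1.

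Col1a1 encodes the alpha 1 chain, of which type I collagen holds more copies than of alpha 2. Its levels were 8.64, 8.00 and 8.15 in Prox1-OE and 8.30, 7.95 and 8.46 in control, with the highest and lowest arrays as for Col1a2. Control replicate 3 was second for Col1a1 but not for Col1a2, where control replicate 1 was. The difference was 0.03 ± 0.19 (adjusted p = 0.987; -0.41 to 0.46) and -0.16 ± 0.16 without Prox1-OE replicate 1.

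Type V collagen, which starts fibrils and limits their width, was measured by each of its chain genes. Col5a2 read 9.35, 8.99 and 9.06 in Prox1-OE and 9.17, 8.95 and 9.03 in control (difference 0.08 ± 0.12, adjusted p = 0.918; -0.03 without Prox1-OE replicate 1). Col5a1 read 7.72, 7.51 and 7.83 against 7.55, 7.59 and 7.87 (0.02 ± 0.12, adjusted p = 0.986). Col5a3 read 6.18, 5.76 and 6.21 against 6.14, 6.10 and 6.56. The chains did not follow one order: Col5a2 was highest on Prox1-OE replicate 1, and Col5a1 and Col5a3 on control replicate 3. Col5a3 had the most negative fibrillar difference, -0.22 ± 0.17 (adjusted p = 0.826), and -0.28 without Prox1-OE replicate 1.

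The other bright fibrillar collagens are best known from cartilage. Col27a1 read 7.14, 6.82 and 7.28 in Prox1-OE and 7.21, 7.12 and 6.94 in control. Col2a1, the chain of cartilage type II collagen, read 4.47, 4.32 and 4.56 against 4.73, 4.48 and 4.28. They differed by -0.01 and -0.04 (-0.04 and -0.05 without Prox1-OE replicate 1), and neither had Prox1-OE replicate 1 as its highest array. The remaining fibrillar genes Col11a1, Col11a2 and Col24a1 had mean levels of 2.67 to 3.82, below the array medians, and differences of 0.20, -0.18 and -0.05.

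**Figure D1:**
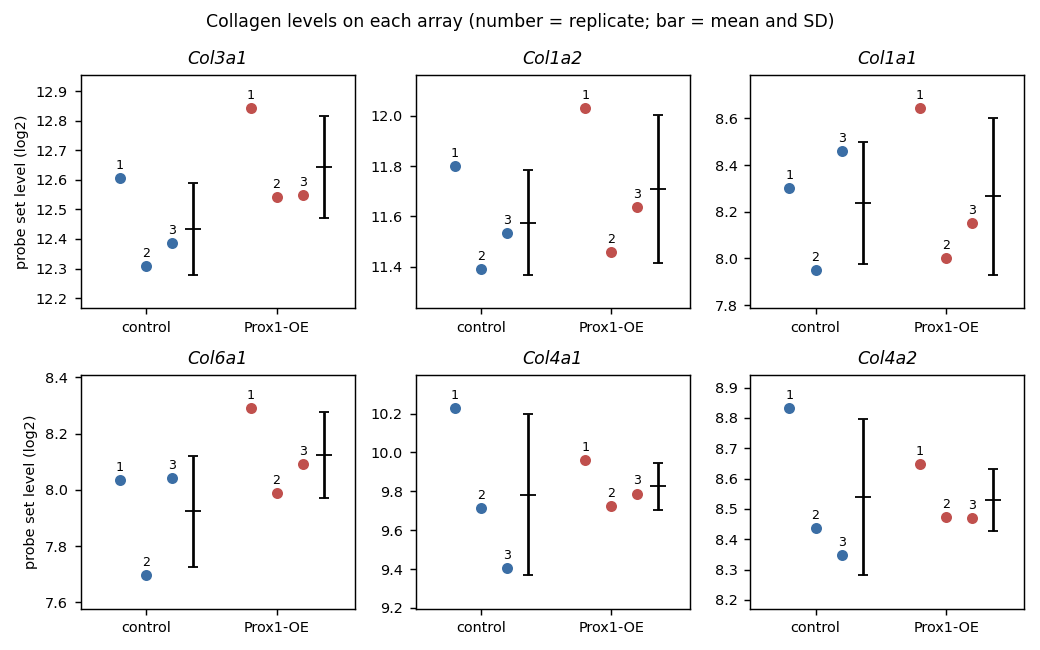
Level of 6 collagens on each array, with the log2 probe set value on the y axis (each panel has its own range, not from 0) and points numbered by replicate; the bar gives the mean and SD of 3 arrays. Prox1-OE replicate 1 is the highest point for Col3a1, Col1a2, Col1a1 and Col6a1, while control replicate 1 is the highest for Col4a1 (10.23) and Col4a2 (8.83), and the groups overlap in every panel.

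Col4a1 and Col4a2, whose products form the common type IV network of basement membranes, followed another array than the type I and III genes. Col4a1 read 9.96, 9.72 and 9.79 on the Prox1-OE arrays and 10.23, 9.71 and 9.41 on the controls. Col4a2 read 8.65, 8.47 and 8.47 on the Prox1-OE arrays and 8.83, 8.44 and 8.35 on the controls. In both genes control replicate 1 was the highest, Prox1-OE replicate 1 the second and control replicate 3 the lowest, so that the controls spanned the Prox1-OE arrays. The differences were 0.04 ± 0.19 (adjusted p = 0.979; -0.40 to 0.48) for Col4a1 and -0.01 ± 0.14 (adjusted p = 0.994; -0.32 to 0.30) for Col4a2. The SD of Col4a1 was 0.41 in control and 0.12 in Prox1-OE. Without Prox1-OE replicate 1 the differences were -0.03 and -0.07.

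Col4a5, a chain of a second type IV network, read 7.50, 6.98 and 7.08 in Prox1-OE and 7.14, 7.003 and 6.97 in control. Prox1-OE replicate 1 alone stood above the rest, and the difference of 0.15 ± 0.14 (adjusted p = 0.858) became -0.01 without it. Col18a1, whose product gives rise to endostatin, read 5.86, 5.96 and 6.09 against 6.12, 5.74 and 5.75. Col15a1, its relative in the basement membranes of muscle and vessels, read 5.89, 5.82 and 6.18 against 6.05, 5.86 and 5.67. Both differed by 0.10 ± 0.13 (adjusted p = 0.902 and 0.905), and by 0.15 and 0.14 without Prox1-OE replicate 1.

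Col4a4, a chain of the type IV network of the kidney glomerulus, was the basement membrane gene with the smallest p. It read 3.70, 3.74 and 3.81 in Prox1-OE and 3.98, 3.83 and 4.05 in control. Every Prox1-OE array lay below every control, with Prox1-OE replicate 3 and control replicate 2 the nearest. The difference was -0.20 ± 0.09 (adjusted p = 0.753), or -0.18 without Prox1-OE replicate 1, at a level below the array medians. The other 2 probe sets of the gene differed by 0.12 and 0.14 in the opposite direction. Its neighbour Col4a3 differed by -0.01 and Col4a6 by -0.10.

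Type VI collagen forms beaded microfilaments around cells, and its common chains were all bright. Col6a3 read 9.21, 8.73 and 8.90 in Prox1-OE and 8.83, 8.65 and 9.03 in control. Col6a2 read 8.38, 8.12 and 8.17 against 8.18, 7.82 and 8.42, and Col6a1 read 8.29, 7.99 and 8.09 against 8.03, 7.70 and 8.04. Control replicate 2 was the lowest array for each of these genes. Prox1-OE replicate 1 was the highest for Col6a3 and Col6a1, and control replicate 3 for Col6a2. The differences were 0.11 ± 0.15, 0.09 ± 0.16 and 0.20 ± 0.13 (adjusted p = 0.905, 0.939 and 0.798), and -0.02, 0.01 and 0.12 without Prox1-OE replicate 1.

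Col14a1, which binds to the surface of fibrils, had the largest positive difference among the bright collagens. Its levels were 8.35, 7.81 and 7.86 in Prox1-OE and 7.81, 7.56 and 7.92 in control. Prox1-OE replicate 1 again stood above the other arrays, and control replicate 3 lay above the other Prox1-OE arrays. The difference of 0.24 ± 0.16 (adjusted p = 0.7999; -0.13 to 0.61) became 0.07 ± 0.13 without Prox1-OE replicate 1. Of the other collagens that bind to fibrils, Col19a1 (0.26), Col20a1 (-0.28) and Col9a2 (-0.20) differed most, in both directions. Among these Col19a1 and Col9a2 were dim, with mean levels of 4.01 and 4.15. Smaller differences were those of Col9a1 (-0.02), Col9a3 (-0.10) and Col22a1 (0.03). Col16a1 read 5.94, 5.73 and 5.82 in Prox1-OE and 5.97, 5.79 and 5.82 in control (-0.03 ± 0.10, adjusted p = 0.971; -0.09 without Prox1-OE replicate 1), and Col12a1 differed by -0.02.

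Some members had Prox1-OE replicate 1 among their lowest arrays. Col7a1, which builds the anchoring fibrils under epithelium, read 7.63, 7.91 and 8.25 in Prox1-OE and 8.20, 8.04 and 7.59 in control, so each group spanned nearly the same range (difference -0.01 ± 0.20, adjusted p = 0.994; 0.14 without Prox1-OE replicate 1). Col20a1 read 4.86, 5.78 and 5.06 against 5.48, 5.81 and 5.26. Its lowest array was Prox1-OE replicate 1 and its highest arrays were the replicates numbered 2, and the difference was -0.28 ± 0.24 (adjusted p = 0.838). It was -0.10 without Prox1-OE replicate 1, -0.55 without Prox1-OE replicate 2, -0.14 without control replicate 2 and -0.41 without control replicate 3. Of the membrane-spanning collagens, 3 of 4 had negative differences and none passed the test. Col25a1 read 6.51, 6.54 and 6.70 against 6.69, 6.70 and 6.84 (-0.15 ± 0.10, adjusted p = 0.786; -0.12 without Prox1-OE replicate 1). Col13a1 read 4.96, 4.86 and 4.80 against 5.11, 4.96 and 5.07 (-0.17 ± 0.09, adjusted p = 0.767; -0.22 without Prox1-OE replicate 1). Col23a1 differed by -0.05 and Col17a1, of the anchoring complex of skin, by 0.13.

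Col19a1 had the smallest p of all collagens. It read 4.16, 4.25 and 4.03 in Prox1-OE and 3.85, 3.90 and 3.90 in control, so that every Prox1-OE array lay above every control. The difference was 0.26 ± 0.09 (limma adjusted p = 0.693; 95% interval 0.05 to 0.47) and the same without Prox1-OE replicate 1. The levels were below the array medians, and its other 2 probe sets both differed by 0.07. The remaining members were Col6a4, Col6a5, Col8a1, Col8a2, Col9a1, Col9a2, Col9a3, Col10a1, Col22a1 and Col26a1. Their mean levels were 2.99 to 4.47 and their differences ran from -0.20 (Col9a2) to 0.19 (Col6a4). Types IX and X are known from cartilage and type VIII from cornea and vessels.

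**Figure D2:**
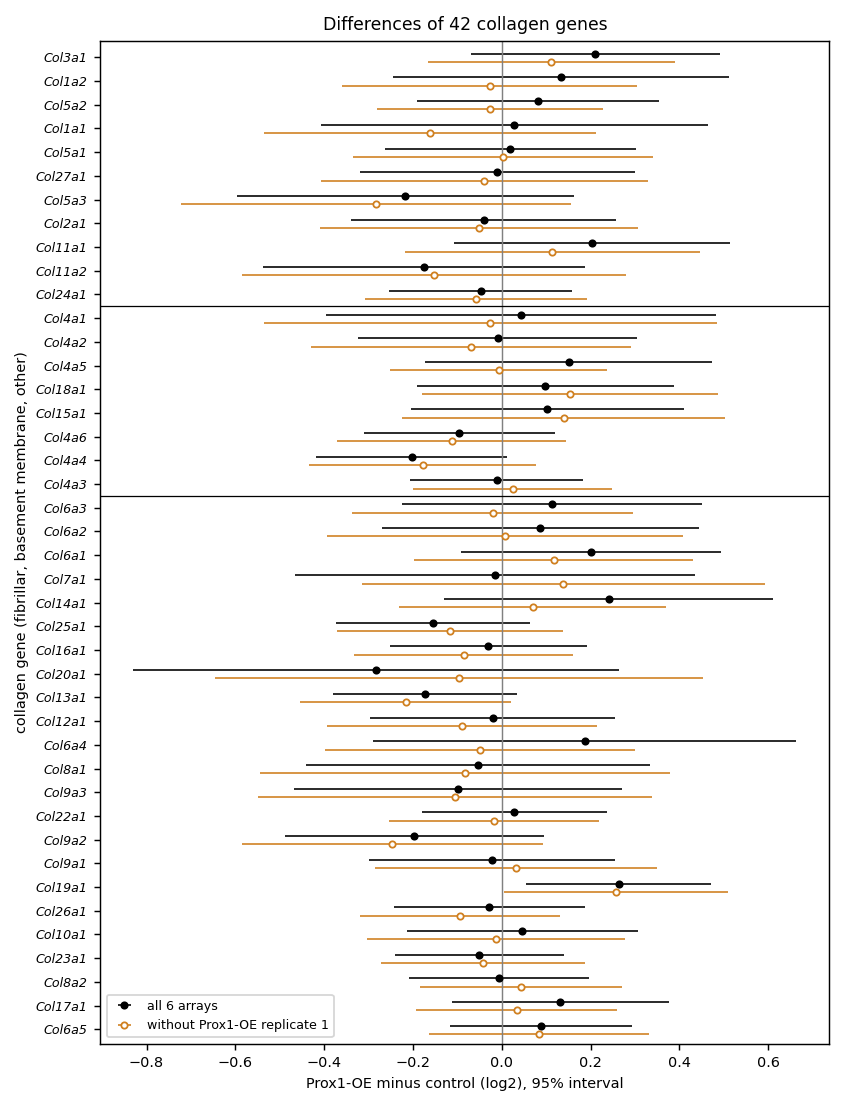
Difference between Prox1-OE and control (x axis, log2) of each of 42 collagens, in blocks of fibrillar, basement membrane and other collagens ordered by mean level; points are estimates and lines are 95% intervals. The interval with all 6 arrays excludes 0 for Col19a1 alone, and without Prox1-OE replicate 1 the open points of 10 of 11 fibrillar collagens lie left of the filled ones, all but that of Col11a2.

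The fibrillar values depended on more than 1 array. Without Prox1-OE replicate 1 the difference was smaller or more negative for 10 of 11 fibrillar collagens, 4 of 8 basement membrane collagens and 17 of 23 others, against 9203 of 18194 of all genes. Of the 6 fibrillar genes with a positive difference, 3 were positive without that array. Leaving out Prox1-OE replicate 2 instead moved the 8 bright fibrillar genes the other way, each to a higher value (Col1a2 to 0.26, Col27a1 to 0.12). The median of the 11 fibrillar genes was 0.02 with all arrays, -0.04 without Prox1-OE replicate 1, 0.12 without Prox1-OE replicate 2 and -0.05 without Prox1-OE replicate 3. Prox1-OE replicate 1 was the highest of the 6 arrays for 9 of the 24 bright collagens (37.5%) and for 21.1% of all bright genes. Control replicate 2 was the lowest for 11 of the 24 (45.8%) and for 14.9% of bright genes. Among the 5 bright basement membrane genes, control replicate 1 was the highest for 3 and control replicate 3 the lowest for 4.

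The bright fibrillar collagens averaged 0.20, -0.18 and 0.06 over the control mean on Prox1-OE replicates 1 to 3, and 0.09, -0.12 and 0.03 on control replicates 1 to 3. The basement membrane collagens averaged 0.15, -0.03 and 0.10 on the Prox1-OE arrays and 0.26, -0.07 and -0.19 on the controls. The other bright collagens averaged 0.10, -0.04 and -0.02, and 0.06, -0.11 and 0.05. In each class the Prox1-OE arrays lay on both sides of the control mean.

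**Figure D3:**
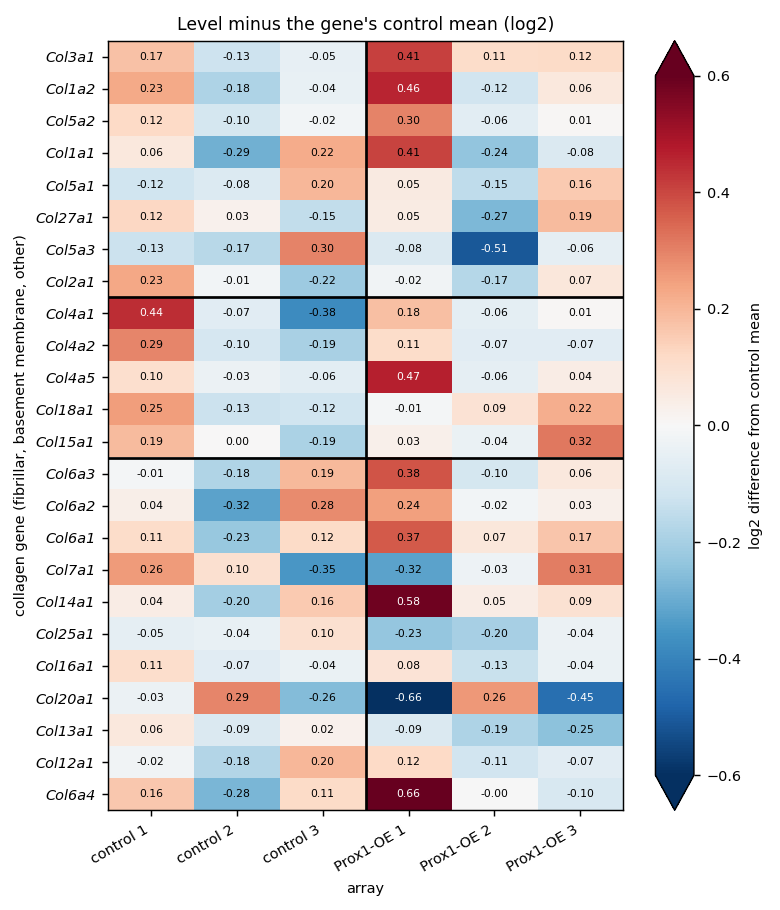
Level of the 24 bright collagens on each array minus the gene's control mean (log2, colour and printed value), with lines between fibrillar, basement membrane and other collagens. The column of Prox1-OE replicate 1 is red for Col3a1 (0.41) and Col1a2 (0.46), while Col4a1 and Col4a2 are reddest on control replicate 1 (0.44 and 0.29) and blue on control replicate 3 (-0.38 and -0.19).

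Markers of the cells that hold collagens varied over the same arrays. Fibroblast and stellate cell markers other than collagens (13 of 14 measured, 10 of them bright) averaged 0.26, -0.02 and 0.07 over control on Prox1-OE replicates 1 to 3 and 0.11, -0.02 and -0.09 on the controls. Their summed log2 level was 79.3 to 82.9 in Prox1-OE and 78.4 to 80.9 in control. Of the 13 genes 10 were positive, 3 were negative and 0 passed the adjusted threshold, and their median was 0.11, or 0.04 without Prox1-OE replicate 1. Prox1-OE replicate 1 was the highest array for 9 of the 13. Vim and Pdgfra differed by 0.32 and 0.27. Gfap, a stellate cell marker with a mean level of 4.74, differed by -0.17 with every Prox1-OE array below every control. Des, of the same list, differed by 0.09, and by -0.04 without Prox1-OE replicate 1. Smooth muscle and pericyte markers (10 of 10 measured) averaged 0.46, -0.04 and -0.02 on the Prox1-OE arrays and 0.17, -0.02 and -0.14 on the controls, with summed levels of 64.2 to 69.2 and 63.2 to 66.3.

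Blood endothelial markers (10 of 10 measured) averaged 0.21, 0.02 and 0.05 on the Prox1-OE arrays and 0.24, 0.12 and -0.36 on the controls, with summed levels of 64.4 to 66.3 and 60.6 to 66.6. By this mean they were highest on control replicate 1 and lowest on control replicate 3, as were Col4a1 and Col4a2. Their median was instead highest on Prox1-OE replicate 1 (0.25, against 0.21 on control replicate 1). Each of these arrays was the highest for 4 of the 10 genes. Control replicate 3 was the lowest by the median as well (-0.32). The order of the means was not particular to endothelium. Islet endocrine markers (7 of 8 measured) averaged 0.34 on control replicate 1, their highest array, and -0.31 on control replicate 3, their lowest. Fibroblast, smooth muscle and macrophage markers were also lowest on control replicate 3. B cell markers (8 of 9 measured, 2 of them bright) averaged 1.07 on Prox1-OE replicate 1 and -0.04 to 0.37 on the other arrays. Their summed levels were 34.5 to 41.6 in Prox1-OE and 32.7 to 33.3 in control. The median of the 8 genes on Prox1-OE replicate 1 was only 0.24, and 5 of the differences between groups were positive and 3 negative. Macrophage markers (9 of 9) averaged 0.93, 0.37 and 0.35 on the Prox1-OE arrays and 0.18, -0.01 and -0.17 on the controls. Their summed levels were 64.5 to 69.7 and 59.8 to 62.9. Of these genes 8 were positive and 1 negative, and 0 passed the adjusted threshold. At an unadjusted limma p under 0.05 there were 6, beside 6.65% of all genes. The median was 0.59, and 0.44 without Prox1-OE replicate 1. Lymphatic endothelial markers (5 of 6) averaged 0.90, 0.13 and 0.45 on the Prox1-OE arrays and -0.12, -0.03 and 0.15 on the controls. The lowest mean level of all genes was 2.51, so a log2 value above 0 does not show that a marker was present. The part of these markers in the collagen values was not tested.

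**Figure D4:**
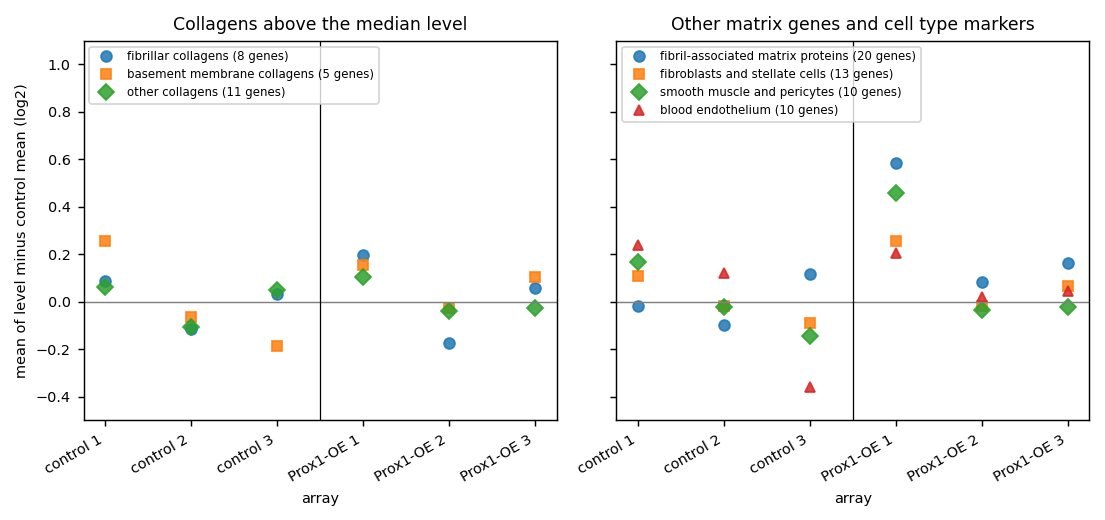
Mean over each list of the level minus the control mean (y axis, log2) on each of the 6 arrays, for bright collagens by class (left) and for other matrix genes and cell type markers (right). Prox1-OE replicate 1 is the highest array for fibril-associated matrix proteins (0.58) and smooth muscle markers (0.46), and control replicate 3 the lowest for basement membrane collagens (-0.19) and blood endothelium (-0.36). Control replicate 3 is also the lowest for fibroblast (-0.09) and smooth muscle (-0.14) markers.

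Probe sets of 1 gene did not always tell the same story. Of the 42 genes 27 had more than 1 probe set, up to 4, and the brightest stood for the gene. Of the other 40 probe sets, 22 had the sign of the brightest, and of the 14 that were bright themselves 9 did. The second probe set of Col3a1 differed by 0.33, those of Col1a2 and Col5a2 by 0.20 and 0.24, and that of Col14a1 by 0.43. Each value was larger than that of the brightest. Without Prox1-OE replicate 1 they were 0.20 (Col3a1), -0.02 (Col1a2), 0.05 (Col5a2) and 0.26 (Col14a1). Bright probe sets with the other sign than the brightest were those of Col5a1 (-0.0006 and -0.19, brightest 0.02) and Col4a5 (-0.05, brightest 0.15). The same held for Col18a1 (-0.04, brightest 0.10) and Col27a1 (0.07, brightest -0.01). The remaining, dim probe set of Col1a2 differed by -0.16. Col4a6 differed by -0.10 on its brightest probe set and by 0.27 on the other. In a fit of all probe sets, 0 of the 82 collagen probe sets passed the threshold, and the smallest adjusted p was 0.771.

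Genes that fold, modify and crosslink collagen were tested in the same fit. Of 24 measured (of 26 listed), 0 passed the adjusted threshold, 14 were positive and 10 negative, and the median was 0.04, beside -0.01 for all genes. At an unadjusted p under 0.05, 3 were higher and 0 lower, where 6.65% of all genes passed (535 higher and 674 lower). The median was 0.02 without Prox1-OE replicate 1. Serpinh1, the collagen chaperone of the endoplasmic reticulum that is also induced by heat, had the smallest p. It read 9.18, 9.30 and 9.20 in Prox1-OE and 8.89, 8.92 and 8.65 in control, with no overlap. The difference was 0.41 ± 0.10 (adjusted p = 0.690), and 0.44 without Prox1-OE replicate 1.

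Prolyl 4-hydroxylase makes the hydroxyproline that stabilises the helix. Its catalytic subunit P4ha1 read 7.49, 7.23 and 7.20 in Prox1-OE and 6.52, 7.14 and 6.70 in control, a difference of 0.52 ± 0.16 (adjusted p = 0.690) and 0.43 without Prox1-OE replicate 1. The related subunit P4ha2 differed by 0.32 ± 0.14 (adjusted p = 0.753). P4hb, their partner subunit and a general folding enzyme of secretory cells, had a mean level of 13.3 and differed by -0.05. Lox, a lysyl oxidase, read 7.60, 7.15 and 7.35 against 7.10, 7.04 and 6.93 (0.34 ± 0.13, adjusted p = 0.710), and 0.22 without Prox1-OE replicate 1. The groups did not overlap for 6 of the 24 genes, where 12.1% of all genes did not. Serpinh1, P4ha1, P4ha2 and Lox lay above every control on every Prox1-OE array, and Creb3l1 (-0.21) and Plod3 (-0.09) below.

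Of the genes that trim procollagen, 6 of 8 listed were measured, 3 were positive, and none passed. Pcolce, an enhancer of the C-proteinase, read 9.27, 8.99 and 9.001 in Prox1-OE and 8.93, 8.67 and 8.71 in control (0.32 ± 0.12, adjusted p = 0.702). Pcolce2, its relative, differed by 0.44 ± 0.18 (adjusted p = 0.739), Bmp1, the proteinase itself, by -0.08, and its relative Tll2 by -0.19. Without Prox1-OE replicate 1, Pcolce and Pcolce2 both differed by 0.23.

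Among genes of collagen breakdown and its inhibitors, 9 of 13 measured were positive, with a median of 0.19, and none passed. The median was 0.07 without Prox1-OE replicate 1, with 7 positive and 6 negative. Ctsk, a collagen-cleaving cathepsin, read 5.96, 5.72 and 5.87 in Prox1-OE and 5.69, 5.05 and 5.34 in control (0.49 ± 0.16, adjusted p = 0.690; 0.43 without Prox1-OE replicate 1). The inhibitors Timp1, Timp2 and Timp3 differed by 0.20, 0.21 and 0.33, and the stromelysin Mmp3 by 0.19 (0.16, 0.08, 0.16 and 0.16 without Prox1-OE replicate 1). Collagen receptors gave a median of 0.05 over 8 genes, and none passed. Ddr2, a collagen-binding tyrosine kinase, differed by 0.33 ± 0.15 (adjusted p = 0.753; 0.18 without Prox1-OE replicate 1), and the integrin chains Itgb1, Itga2 and Itga10 by 0.16, -0.13 and -0.15.

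Proteins that sit on or beside fibrils had the highest median of the matrix lists, 0.30, with 18 of 20 measured positive and none past the adjusted threshold. Tnc, tenascin C, read 4.96, 4.09 and 4.93 in Prox1-OE and 4.002, 4.03 and 3.94 in control (0.67 ± 0.22, adjusted p = 0.690; 0.52 without Prox1-OE replicate 1). Dcn, the fibril-binding proteoglycan decorin, read 12.19, 11.61 and 11.75 against 11.55, 11.30 and 11.64 (0.35 ± 0.16, adjusted p = 0.753; 0.18 without Prox1-OE replicate 1). Fn1 and Thbs2 differed by 0.42 and 0.29, and by 0.25 and 0.18 without Prox1-OE replicate 1. The list averaged 0.58, 0.08 and 0.16 over the control mean on the Prox1-OE arrays, and -0.02, -0.10 and 0.11 on the controls. Without Prox1-OE replicate 1 its median was 0.09, with 15 of 20 positive. Whether this list differed from the fibrillar collagens, with a median of 0.02, was not tested.

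The other basement membrane components gave a median of 0.06, with each of 5 genes positive and none past the threshold. Nid1, which links the type IV network to laminin, read 10.24, 9.84 and 9.97 in Prox1-OE and 10.07, 9.68 and 9.89 in control (0.13 ± 0.14, adjusted p = 0.871; 0.02 without Prox1-OE replicate 1). Its relative Nid2 differed by 0.16 and Hspg2, perlecan, by 0.06. TGF beta drives collagen synthesis in fibroblasts, and its signals and targets gave a median of 0.08 over 16 genes, 11 of them positive, none of which passed. The median was 0.0018 without Prox1-OE replicate 1, with 8 positive and 8 negative. The receptors Tgfbr2 and Tgfbr3 differed by 0.31 and 0.30 (adjusted p = 0.730 and 0.719; 0.18 and 0.21 without Prox1-OE replicate 1) and the induced matrix gene Tgfbi by 0.53. Tgfbi read 8.54, 7.56 and 7.52 in Prox1-OE and 7.48, 7.16 and 7.37 in control. Its difference was 0.20 without Prox1-OE replicate 1.

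**Figure D5:**
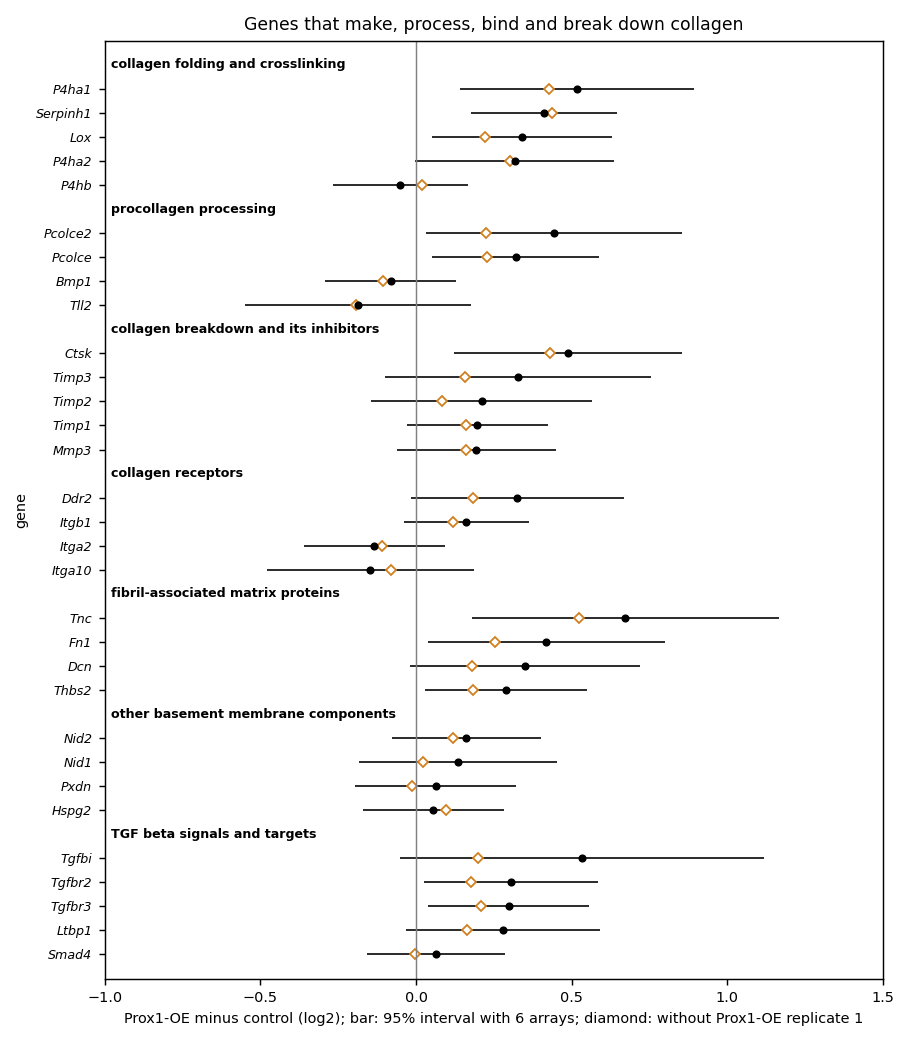
Difference between Prox1-OE and control (x axis, log2) of the named genes that make, process, bind or break down collagen, by list; points and bars are estimates with 95% intervals from 6 arrays, and diamonds are estimates without Prox1-OE replicate 1. Serpinh1 (0.41 and 0.44) hardly moves without that array, whereas the diamond of Tgfbi lies at 0.20 and its point at 0.53.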

How the data were processed

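The authors deposited 1 log2 value for each probe set and array. RMA and Partek 6.5 are the tools in the submitters' processing notes, which give no settings. Quantile normalization within RMA hides a change of total RNA, and dim probe sets show compressed differences. The platform annotation named 34958 of 45101 probe sets with 1 symbol, and all 42 collagens matched RefSeq by gene identifier. Each gene was read from its brightest probe set, by the mean of 6 arrays. All 18194 genes were fitted with limma 3.58.1 in R 4.3.3 (lmFit, eBayes, no covariate), two-sided, with Benjamini-Hochberg adjustment over all genes at 0.05, with and without Prox1-OE replicate 1. The fit was tested on simulated data. The number of arrays limits the precision.

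Collagens and lists were chosen with earlier results of these data known. Named with values were, in each class, up to 8 collagens above the median level and, over all, the 6 with the smallest p. The other members got differences or ranges. Of each list of partner genes, up to 4 with the smallest p and the brightest could be named. Vim, Pdgfra, Gfap, Des, Creb3l1, Plod3 and the examples of probe sets were picked after their values were seen. Col6a6 and Col28a1 were not analysed here.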

Additional observations from a re-analysis of the deposited data

How the results depend on the processing

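Under all 10 other settings and without any 1 of the 6 arrays, 0 collagens passed the threshold, and the smallest adjusted p of the 24 named collagens was 0.604. Over all genes 5 passed, 2 with the replicate block, 4 with quantile normalization again, 5 under the other settings, and 0 to 4 without 1 array (0 without Prox1-OE replicate 1 or 3, 3 without Prox1-OE replicate 2, 1 without control replicate 1 or 2). The replicate numbers were not taken as pairs. Over all genes the deviations of same-numbered arrays correlated at 0.04, 0.14 and 0.11. No such correlation was computed for differently numbered arrays, so these values cannot decide the pairing. They do not speak for the collagens alone either. The bright fibrillar collagens averaged highest on replicate 1 and lowest on replicate 2 in both groups (0.20, -0.18 and 0.06 in Prox1-OE, 0.09, -0.12 and 0.03 in control). Whether same-numbered arrays belong together was not tested. The median of collagens ran from -0.027 to 0.0595 without 1 array and that of basement membrane collagens from -0.016 to 0.168, in both cases highest without control replicate 1. That of fibrillar collagens ran from -0.050 (without Prox1-OE replicate 3) to 0.119 (without Prox1-OE replicate 2). Col20a1 kept its sign and ran from -0.096 (without Prox1-OE replicate 1) to -0.555 (without Prox1-OE replicate 2).

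Of 190 values of named collagens under other settings 8 changed sign, and the cause was not tested. With all probe sets of a gene averaged, Col5a1 was -0.057, Col27a1 0.028 and Col4a4 0.020. With median centring Col4a2 was 0.0094, Col27a1 0.0086 and Col7a1 0.0038. Col5a1 was -0.012 with quantile normalization again, and Col4a1 -0.020 with array weights. Without 1 array, 26 of 144 values changed sign, in 14 genes. Their ranges were -0.0051 to 0.198 (Col15a1), -0.085 to 0.023 (Col16a1), -0.161 to 0.162 (Col1a1), -0.027 to 0.258 (Col1a2), -0.110 to 0.119 (Col27a1), -0.150 to 0.075 (Col2a1), -0.145 to 0.265 (Col4a1), -0.106 to 0.137 (Col4a2), -0.0066 to 0.254 (Col4a5), -0.050 to 0.119 (Col5a1), -0.026 to 0.153 (Col5a2), -0.073 to 0.228 (Col6a2), -0.021 to 0.221 (Col6a3) and -0.191 to 0.138 (Col7a1). The 18 collagens below the array medians are limited by signal near background.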
